A study of Mus musculus with 9 samples.

Results

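Hepatokines are proteins that hepatocytes release into the blood and that act on other tissues, mostly on fat, muscle and the use of glucose and lipid. The genes described here are those whose symbol in the count table was one of 8 names, the activin subunits Inhba and Inhbe, their antagonist Fst, Angptl8, Lect2, the fetuins Fetub and Ahsg, and Rbp4. The symbol was found for 7 of the 8 among the 19686 genes of the table. Ahsg was not analysed here. Of the 7 genes, 6 passed the filter on low counts and were tested in each comparison, and Fst did not pass it in any.

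Poly(A) RNA from the liver of male Wistar rats was sequenced in 9 libraries, 3 in each of 3 groups. The control group drank purified water and received saline by gavage, and the model group drank 15% fructose and received saline. The DSS group drank 15% fructose and received an extract of Danggui-Shaoyao-San, a herbal formula, at 1.8 g/kg. The treatments lasted 8 weeks, and all rats were fasted for 12 h before the liver was taken. The labels name the treated group DSS, and by the methods of the study it was the 50% methanol extract that was taken to sequencing. The labels give the mouse as the organism, but the strain and all gene identifiers are those of the rat. No genetic change or cell-type-specific driver is named, and drink and gavage are the only stated differences between the groups. The labels do not state that each library is 1 animal. Each is called a rat below, n counts libraries, and the tests measure only the spread between these libraries, which may be technical.

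In the liver, most hepatokine genes are transcribed in hepatocytes under the control of nutrients. The activin subunits Inhba and Inhbe belong to the TGF-beta family and pair into the ligands activin A and activin E, which signal through activin receptors and SMAD proteins, and follistatin (Fst) binds and neutralises activins. Angptl8 responds to insulin and feeding and takes part in the inhibition of lipoprotein lipase, which releases fatty acids from circulating triglyceride. Lect2 is a leukocyte chemotactic factor, fetuin B (Fetub) is a protease inhibitor of the cystatin family, and Rbp4 carries retinol from the liver in the plasma.

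The libraries held 14345819 to 26837227 counts. Library model 1 held the most, and it stood apart on the second principal component of all genes (25.2% of the variance) at -47.1, against -10.9 to 17.7 for the other 8 libraries, so the fold changes of the hepatokine genes and the medians of the related lists are also given without it. All 8 hepatocyte markers were found in every library, and their summed level was 136000 to 174000 CPM (read counts scaled to a common library size) in the control rats, 175000 to 217000 CPM in the model rats and 170000 to 213000 CPM in the DSS rats. The model rats thus lay just above the control rats in this sum, as they did for Inhba, Inhbe and Lect2, and its part in those values was not tested. The single markers were split between these 2 groups, with 6 of 8 above 0 and a median log2 fold change of 0.17. Without overlap, 2 were higher and 2 lower in the model rats (21.1% of all genes). At an unadjusted edgeR p under 0.05, 1 was higher and 2 lower (13.2%), and DESeq2 called 1 lower (2.05%). In bulk tissue, fewer cells of a type and less RNA per cell cannot be told apart. The summed markers of endothelial cells, stellate cells, leukocytes, bile duct cells and red blood cells overlapped between the groups. Under these sums, 0 of 7 tested leukocyte and Kupffer cell markers had a fold change above 0 in either comparison with the control group (median log2 fold changes of -0.32 in the model group and -0.31 in the DSS group, 1 marker lower at an unadjusted edgeR p under 0.05 in each, with 13.2% and 24.3% of all genes), and 0 of 6 endothelial markers did in the model group (median -0.22). The groups overlapped for each of these markers, and their part in the hepatokine values was not tested.

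The groups were compared as model against control, DSS against model and DSS against control, and each fold change is that of the first group over the second. The thresholds for calling a gene are those that the study states. Its tests were others (DEGseq and DESeq), and its supplement labels some genes as changed outside these thresholds. A gene was called here where edgeR's false discovery rate (FDR) did not exceed 0.01 and the log2 fold change reached 0.5 in either direction. By this rule 0 of the 6 tested hepatokine genes were called in model against control, where 0.0801% of all genes were called, 0 in DSS against model (0.136% of all genes) and 0 in DSS against control (1.48% of all genes). DESeq2 called 1, 1 and 0 of the 6 in these comparisons (2.05%, 1.18% and 6.09% of all genes), and that 1 gene was Inhba both times. At an unadjusted edgeR p under 0.05 there were 3, 1 and 0 of the 6 (13.2%, 8.02% and 24.3% of all genes). The same shares of all genes apply to the counts of the lists below. Each pair of comparisons shares the libraries of 1 group, so the 2 results for Inhba, which share the model libraries, are not independent.

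The groups did not overlap for 3 of the 6 genes in model against control (Inhba, Inhbe and Lect2, all higher), as for 21.1% of all genes. They did not overlap for 1 of the 6 in DSS against model (Inhba, which was lower, with 14% of all genes) and for 1 in DSS against control (Lect2, which was higher, with 30.1% of all genes). The fold change was above 0 for 5, 1 and 4 of the 6 genes (49.9%, 50.1% and 49.1% of all genes). Their median log2 fold change was 0.28 in model against control, -0.34 in DSS against model and 0.07 in DSS against control, against medians over all genes of -0.001, 0.001 and -0.008. In model against control without model 1, Inhba was at 1.11, Inhbe at 0.52 and Lect2 at 0.25. Angptl8 (-1.14), Rbp4 (-0.10) and Fetub (-0.06) were then below 0. In DSS against model without model 1, Inhba was at -1.17, Angptl8 at -0.42, Inhbe at -0.09 and Lect2 at -0.05. Fetub (0.17) and Rbp4 (0.12) were then above 0. The direction counts and medians with the model group thus depend on this library.

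**Figure D1:**
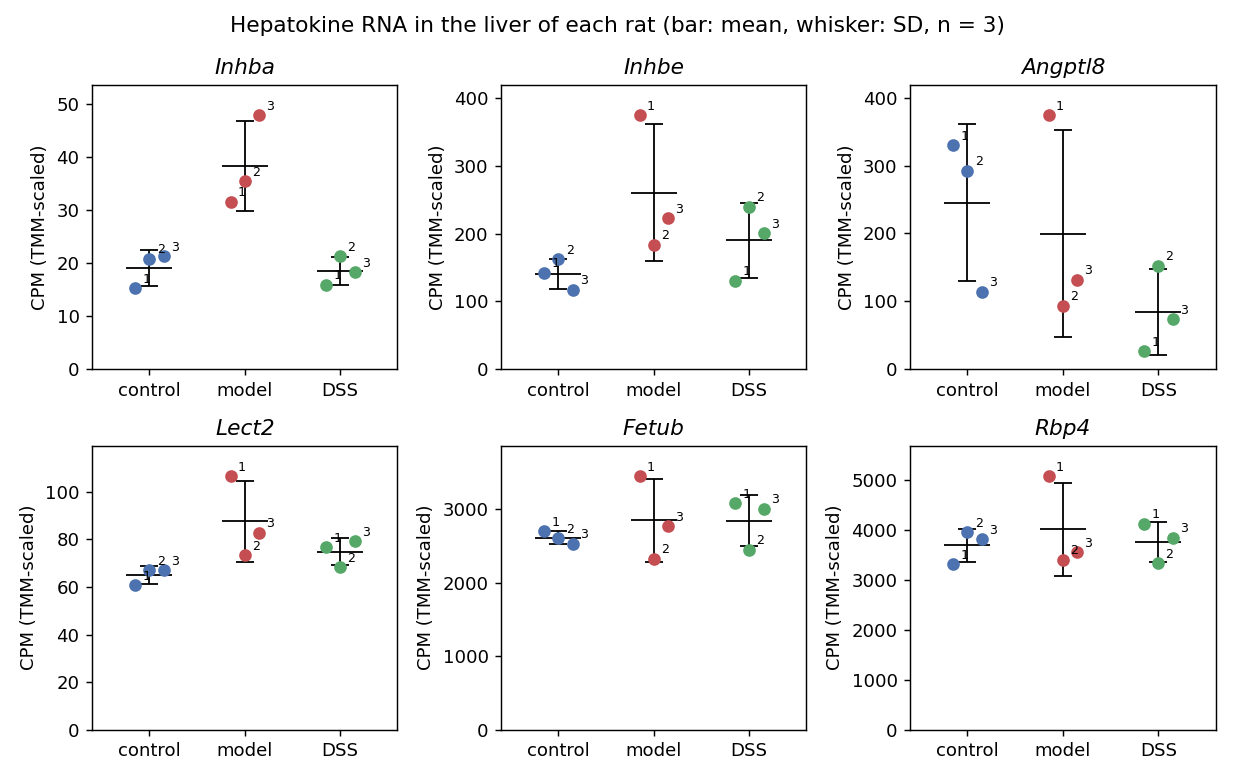
Level of each of the 6 tested hepatokine genes (vertical axis, CPM on TMM-scaled library sizes, from 0) in the 3 groups (horizontal axis), with 1 numbered point per rat, a bar at the mean and whiskers of 1 SD (n = 3). The 3 model rats sit above all other rats for Inhba, model 1 is the highest rat for the other 5 genes, and the Angptl8 points are widely spread in every group.

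Inhba (ENSRNOG00000014320), the beta A subunit of activin A, was measured at 15.2, 20.8 and 21.3 CPM in the control rats, at 31.6, 35.4 and 47.9 CPM in the model rats and at 15.9, 21.3 and 18.2 CPM in the DSS rats. Every model rat lay above every rat of the other groups, and the control and DSS ranges overlapped almost completely. The group means were 19.1 ± 3.38, 38.3 ± 8.51 and 18.5 ± 2.70 CPM (SD, n = 3). Inhba had a log2 fold change of 1.0 in model against control (SE 0.205, 95% interval 0.53 to 1.47, unadjusted p = 0.00106), which did not pass edgeR's threshold (FDR = 0.0888) and passed DESeq2's (adjusted p = 0.00194). For DSS against model it was -1.05 (SE 0.197, -1.50 to -0.59, unadjusted p = 0.000666), with an edgeR FDR of 0.0925 and a DESeq2 adjusted p of 0.000675. For DSS against control it was -0.05 (-0.43 to 0.33, edgeR FDR = 0.888). A two-sided exact permutation test over the rats gave p = 0.1 for both comparisons with the model group, the smallest that 3 rats against 3 can give.

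Inhba did not rest on model 1. Without this library the log2 fold change was 1.11 in model against control (edgeR FDR = 0.0525) and -1.17 in DSS against model (FDR = 0.066). The summed level of 6 proliferation markers, none of them at 0 in any library, moved with Inhba between the DSS and model groups, at 18.4 to 23.5 CPM in the DSS rats and 25.1 to 30.9 CPM in the model rats. Each of the 6 markers was lower in DSS against model, with a median log2 fold change of -1.61. Of them, 4 had an unadjusted p under 0.05 (8.02% of all genes), and 5 did not overlap between the groups (14%). The sum overlapped between the control (21.5 to 32.5 CPM) and model groups, where 4 of 5 tested markers were above 0 with a median of 0.59 and 1 was higher at an unadjusted p under 0.05 (13.2% of all genes). In DSS against control, where Inhba was at -0.05, the sums overlapped and 4 of 5 tested markers were below 0, with a median of -0.66. There 2 were lower at an unadjusted p under 0.05 (24.3% of all genes), and 1 did not overlap (30.1%). The part of these markers in the Inhba values was not tested.

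Inhbe (ENSRNOG00000007601), the beta E subunit, is transcribed mainly in the liver. It was measured at 142, 161.9 and 116.9 CPM in the control rats, at 374.7, 183.8 and 222.9 CPM in the model rats and at 130.4, 239.4 and 200.6 CPM in the DSS rats. The model rats all lay above the control rats, while the DSS rats spanned from within the control range to within the model range. For model against control the log2 fold change was 0.90 (SE 0.273, 0.27 to 1.52, unadjusted p = 0.0106), which did not pass the threshold by edgeR (FDR = 0.214) or DESeq2 (adjusted p = 0.04). It was -0.45 (-1.17 to 0.27, edgeR FDR = 0.811) in DSS against model and 0.44 (-0.07 to 0.94, FDR = 0.271) in DSS against control. Model 1 was 1 of the 3 rats behind the first value and the highest of them. Without it the log2 fold change was 0.52 in model against control (edgeR FDR = 0.192) and -0.09 in DSS against model. The value in DSS against control was 0.65 without DSS 1 (FDR = 0.0787) and 0.24 without DSS 2 (FDR = 0.555).

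Over the 9 libraries, the gene whose level was most like that of Inhbe among 12897 genes was Fgf21, a fasting-induced hepatokine (Pearson r of log2(CPM + 1) = 0.967, and 0.928 over 8 libraries without model 1). Fgf21 was measured at 6.21, 10.9 and 3.46 CPM in the control rats, 66.4, 7.27 and 17.6 CPM in the model rats and 5.44, 27.7 and 10.9 CPM in the DSS rats. The highest rat of each group was the same for both genes. The genes Marcks and AABR07045322.1 followed at r = 0.948 and 0.942. These correlations are the highest of many, over libraries that share the group differences, and are given as a description.

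Fgf21, Asns and Chac1 are known targets of ATF4, a transcription factor of the amino acid and stress response that binds elements of the form TGATGNAA. Since no rat sequence was used, the mouse promoters of RefSeq (build GRCm38.p6) were searched on both strands for these letters in the 250 bases before each gene's start. This motif was chosen after the values were seen, and 7 of the 8 member symbols matched a mouse entry. It was found for 3 of the 7, which were Inhbe, Angptl8 and Rbp4, for 3 of the 13 genes of the ATF4 list described next (23.1%), which were Chac1, Asns and Atf3, for Fgf21, and for 3.91% of 27025 mouse genes. All these stretches are shown so that the shared letters can be read. Each is written 5′ to 3′ along the strand of its gene, with the motif or its reverse complement in capitals. They are mouse sequences, and a match is a description of letters, not of binding.
Inhbe, chr10:127352006-127352045, minus strand, 181 bases before the start: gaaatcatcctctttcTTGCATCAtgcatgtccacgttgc
Fgf21, chr7:45615606-45615645, minus strand, 139 bases before the start: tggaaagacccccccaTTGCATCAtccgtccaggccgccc
Chac1, chr2:119351033-119351072, plus strand, 193 bases before the start: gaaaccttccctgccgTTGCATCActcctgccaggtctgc
Angptl8, chr9:21835364-21835403, plus strand, 130 bases before the start: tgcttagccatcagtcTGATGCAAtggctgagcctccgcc
Rbp4, chr19:38125374-38125413, minus strand, 76 bases before the start: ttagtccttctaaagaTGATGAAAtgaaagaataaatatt
Asns, chr6:7693210-7693248, minus strand, 23 bases before the start: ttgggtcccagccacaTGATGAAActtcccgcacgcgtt
Atf3, chr1:191183420-191183459, minus strand, 110 bases before the start: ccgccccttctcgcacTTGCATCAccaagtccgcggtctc

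The 13 tested genes of the ATF4 and endoplasmic reticulum stress response had, in model against control, a median log2 fold change of 0.70, against -0.001 for all genes. It was above 0 for 11 of the 13 (49.9% of all genes), and 0 were called by edgeR (0.0801%). At an unadjusted p under 0.05, 8 were higher and 1 lower (13.2%). DESeq2 called 4 higher (2.05%), which were Asns, Psat1, Atf5 and Trib3. Of these 4, the motif above was found for Asns alone. Of the other list genes that hold it, Chac1 was at 1.2 (edgeR FDR = 0.225) and Atf3 at 0.15 (FDR = 0.894). The relation of the motif to the fold changes was not tested. The 2 genes below 0 belong to the endoplasmic reticulum side of the list and were named after their values were seen. They were Xbp1 (log2 fold change -0.76, edgeR FDR = 0.267), a transcription factor of the unfolded protein response, and the chaperone Hspa5 (-0.33, FDR = 0.407), and for both every model rat lay below every control rat. Asns, asparagine synthetase, was measured at 1.46 to 3.85 CPM in the control rats and 18 to 31.8 CPM in the model rats, with a log2 fold change of 3.13 (edgeR FDR = 0.0151, DESeq2 adjusted p = 2.18e-16). Psat1, an enzyme of serine synthesis, was measured at 1.6 to 4.06 CPM and 15.3 to 38.2 CPM (log2 fold change 2.99, edgeR FDR = 0.0307). In neither gene did the control and model rats overlap. The DSS rats lay at 4.13 to 17.9 CPM for Asns and at 4.84 to 19.7 CPM for Psat1.

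Of the 13 genes, 4 were above 0 in DSS against model, the median was -0.24, and 0 were called by edgeR or DESeq2. At an unadjusted p under 0.05, 1 was higher and 3 lower (8.02% of all genes). The smallest FDRs belonged to Xbp1 (log2 fold change 0.81, edgeR FDR = 0.416) and Phgdh, the entry enzyme of serine synthesis (-1.38, FDR = 0.542). Against the control group, 12 of the 13 were above 0 in the DSS group, the median was 0.55, and 0 were called by edgeR (1.48% of all genes). DESeq2 called 4 higher (6.09%), again Asns, Psat1, Atf5 and Trib3. At an unadjusted p under 0.05, 7 were higher and 1 lower (24.3%). The lower gene was Hspa5, at 985 ± 76.7 CPM in the control rats and 627 ± 163 CPM in the DSS rats (SD, n = 3), without overlap (log2 fold change -0.66, edgeR FDR = 0.076, DESeq2 adjusted p = 0.0148). Atf5, a transcription factor related to ATF4, had a log2 fold change of 0.98 (edgeR FDR = 0.0286), and Trib3, a pseudokinase that ATF4 induces, one of 2.64 (FDR = 0.0342).

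Fst (ENSRNOG00000011631), the activin-binding protein follistatin, had 6 counts in all 9 libraries together, with 1 count in each of 6 libraries and 0 in the other 3. A limit of 3 counts corresponds to 0.12 to 0.2 CPM per library, so Fst was at or under this limit in every rat and no fold change is given. Differences of Fst below this limit were not detectable at this depth. Counting intervals and limits cover counting error only.

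Of 22 genes for other activin ligands, receptors, antagonists and SMAD proteins, 17 were tested. For model against control 11 were above 0, the median log2 fold change was 0.22, and 0 were called by edgeR or DESeq2. At an unadjusted p under 0.05, 3 were higher and 1 lower (13.2% of all genes). The 2 smallest FDRs belonged to inhibitors of the pathway, and their relation to the Inhba and Inhbe values was not tested. Bambi, a decoy receptor, was measured at 4.99 to 6.01 CPM in the control rats and 9.16 to 9.75 CPM in the model rats (log2 fold change 0.83, edgeR FDR = 0.101), and Smad7, an inhibitory SMAD, at 12.2 to 16.7 CPM and 19.7 to 29.4 CPM (0.68, FDR = 0.184). The groups did not overlap for either. In the DSS rats Bambi was at 5.55 to 11.3 CPM, a range that overlapped that of the control rats. Smad7 was at 17.8 to 27 CPM there, above every control rat.

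Of the 17 activin genes, 10 were above 0 in DSS against model, and the median was 0.09. Of them, 0 were called by edgeR or DESeq2 or had an unadjusted p under 0.05 (0.136%, 1.18% and 8.02% of all genes). The receptor Acvr1 had the smallest FDR (log2 fold change 0.40, edgeR FDR = 0.692). Of the same 17, 13 were above 0 in DSS against control, the median was 0.20, and 0 were called by edgeR or DESeq2. At an unadjusted p under 0.05, 4 were higher (24.3% of all genes). Smad7 (0.54, edgeR FDR = 0.109) and Acvr1 (0.62, FDR = 0.165) led this list.

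**Figure D2:**
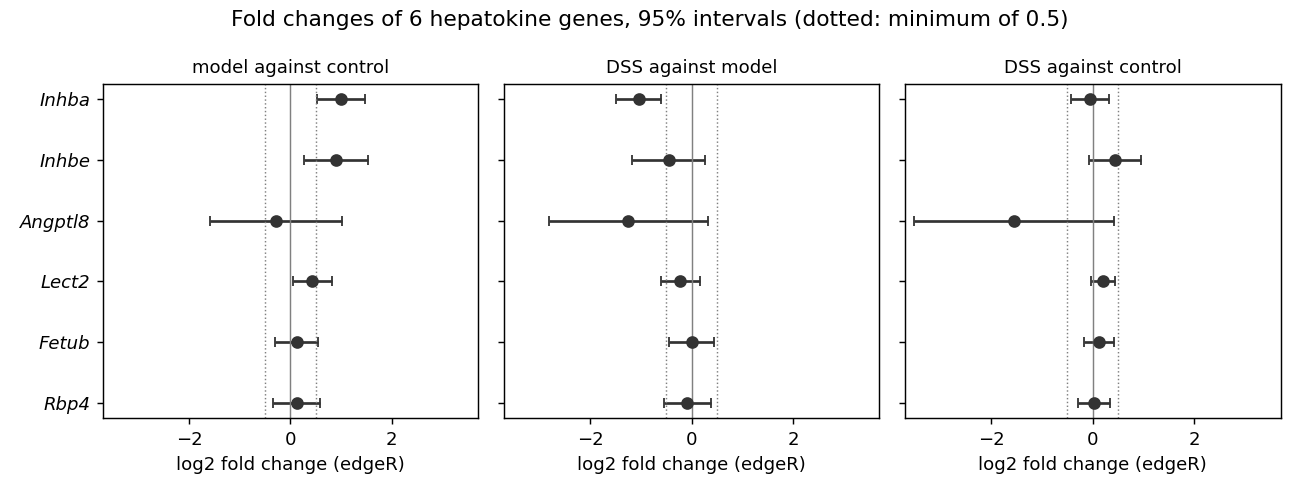
Log2 fold changes by edgeR (horizontal axis) of the 6 tested hepatokine genes (vertical axis) in the 3 comparisons, with 95% intervals and dotted lines at the minimum of 0.5 in either direction. The Inhba interval excludes 0 in both comparisons with the model group, and the Angptl8 intervals are the widest in all 3 panels.

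Angptl8 (ENSRNOG00000011490), the lipase inhibitor, was measured at 329.9, 292.8 and 113.8 CPM in the control rats, at 374.2, 93.1 and 131.9 CPM in the model rats and at 26.4, 152.3 and 73.0 CPM in the DSS rats. The rats differed widely within each group, and the 3 ranges overlapped. No DSS rat reached the level of control 1, control 2 or model 1. The group means were 245.5 ± 115.6, 199.7 ± 152.3 and 83.9 ± 63.7 CPM (SD, n = 3). The log2 fold change was -0.29 in model against control (SE 0.563, -1.59 to 1.01, edgeR FDR = 0.863), -1.25 in DSS against model (SE 0.678, -2.81 to 0.32, FDR = 0.736) and -1.55 in DSS against control (SE 0.76, -3.52 to 0.41, FDR = 0.293). None passed, and intervals of this width leave both no difference and a several-fold one within them. Without model 1 the first 2 values were -1.14 and -0.42, and without model 2 the first was 0.04.

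The spread of Angptl8 between rats of 1 group was among the widest of all genes. The control, model and DSS rats had coefficients of variation of 47.1%, 76.3% and 75.8%, above those of 93.2%, 97.1% and 98.3% of the genes, whose medians were 13.1%, 20.2% and 13.8%. The gene had 486 to 8742 counts per library. In the other tested hepatokine genes the coefficient of variation ran from 3.23% (Fetub, control group) to 38.7% (Inhbe, model group).

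The gene most like Angptl8 over the 9 libraries was Paqr9, a hepatic membrane receptor gene (r = 0.973, and 0.968 without model 1), at 53 to 211 CPM. LOC501038 (r = 0.964) and Mrps9, a mitochondrial ribosomal protein (r = 0.963), followed.

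Of 12 genes of the angiopoietin-like and lipoprotein lipase axis, 10 were tested. All 10 were above 0 in model against control (49.9% of all genes), with a median log2 fold change of 0.40, and 0 were called by edgeR. At an unadjusted p under 0.05, 3 were higher (13.2% of all genes), and 1 (Lpl) was called by DESeq2 (2.05%). Lpl, the lipase itself, was measured at 1.8 to 4.61 CPM in the control rats and 7.49 to 11.8 CPM in the model rats (log2 fold change 1.51, edgeR FDR = 0.116, DESeq2 adjusted p = 0.00311). Lmf1, the chaperone that matures the lipase, was measured at 14.3 to 18.4 CPM and 22.9 to 26.6 CPM (0.56, edgeR FDR = 0.169).

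Of the 10 genes of the axis, 4 were above 0 in DSS against model, the median was -0.17, and 0 were called by edgeR. At an unadjusted p under 0.05, 1 was higher and 2 lower (8.02% of all genes). DESeq2 gave the same numbers (Apoa5, and Angptl4 and Lpl, with 1.18% of all genes). Angptl4, a fasting-induced inhibitor of the lipase, was measured at 106 to 271 CPM in the model rats and 42.8 to 52.9 CPM in the DSS rats (log2 fold change -2.05, edgeR FDR = 0.0496). Apoa5, an apolipoprotein that promotes the clearance of triglyceride, was measured at 559 to 760 CPM and 1090 to 1420 CPM (0.89, edgeR FDR = 0.125). Neither gene overlapped between the groups.

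Apoa5 was the 1 gene of the axis that edgeR called in DSS against control, and it was higher, at 527 to 579 CPM in the control rats and 1090 to 1420 CPM in the DSS rats (log2 fold change 1.14, SE 0.141, FDR = 0.00283). The call was lost without control 2 (FDR = 0.0157) and without control 3 (FDR = 0.0143). Of the 10 genes, 8 were above 0, with a median of 0.23. At an unadjusted p under 0.05, 4 were higher (24.3% of all genes), and 3 were called by DESeq2 (6.09%).

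Lect2 (ENSRNOG00000012189) was measured at 60.7, 67.2 and 67.0 CPM in the control rats, at 106.6, 73.4 and 82.7 CPM in the model rats and at 76.8, 68.4 and 79.3 CPM in the DSS rats. All rats of both fructose groups lay above the control rats, by little in the lowest of each. The log2 fold change was 0.43 in model against control (SE 0.167, 0.05 to 0.81, unadjusted p = 0.0304, edgeR FDR = 0.315), -0.22 in DSS against model (-0.61 to 0.16, FDR = 0.83) and 0.20 in DSS against control (SE 0.104, -0.03 to 0.44, FDR = 0.273). None passed. Without model 1 the first value was 0.25 and the second -0.05. The genes most like Lect2 were Nr2f6, an orphan nuclear receptor (r = 0.971, and 0.933 without model 1), C8g, a complement component made by hepatocytes (r = 0.97), and RF00003 (r = 0.969). RF00003 had few counts, 0 to 59 per library.

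Lect2 is known as a target of beta-catenin in hepatocytes and as a ligand of Met and Tie1. Of 13 other genes for these receptors and targets, 13 were tested in the first comparison and 12 in the others, and edgeR called 0 in each. For model against control the median log2 fold change was -0.13, with 5 above 0 and 2 in each direction at an unadjusted p under 0.05 (13.2% of all genes). DESeq2 called 2 lower (2.05% of all genes), and these were Cyp2e1, a cytochrome P450 of the pericentral hepatocytes (log2 fold change -0.63, edgeR FDR = 0.117), and Oat, ornithine aminotransferase (-1.46, FDR = 0.121). For DSS against model the median was -0.09, with 6 of 12 above 0 and 1 in each direction at an unadjusted p under 0.05 (8.02% of all genes). There Cyp2e1 had the smallest FDR (1.06, edgeR FDR = 0.0738) and was the 1 gene that DESeq2 called, and Glul, glutamine synthetase, came next (-0.52, FDR = 0.449). For DSS against control the median was -0.05, with 6 of 12 above 0. At an unadjusted p under 0.05, 2 were higher and 3 lower (24.3% of all genes), and 2 were called lower by DESeq2 (6.09%). These were Rnf43, which restrains Wnt receptors (-0.66, edgeR FDR = 0.0283), and Oat (-1.06, FDR = 0.0937).

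Fetub (ENSRNOG00000001806) was measured at 2704, 2610 and 2535 CPM in the control rats, at 3453, 2329 and 2767 CPM in the model rats and at 3080, 2450 and 3008 CPM in the DSS rats. The control rats lay within the range of both fructose groups. The log2 fold change was 0.13 in model against control (-0.30 to 0.55, edgeR FDR = 0.811), 0.004 in DSS against model (-0.44 to 0.45, FDR = 0.999) and 0.12 in DSS against control (-0.18 to 0.42, FDR = 0.637). Without model 1 the first was -0.06 and the second 0.17. The genes most like Fetub were Deaf1, a transcription factor (r = 0.979, and 0.96 without model 1), Zdhhc16, a palmitoyltransferase (r = 0.954), and AC108574.1 (r = 0.954). AC108574.1 had few counts, 9 to 53 per library.

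Of 10 other genes for cystatin relatives and for the receptors linked to fetuins, 8 were tested, and edgeR and DESeq2 called 0 in each comparison. The median log2 fold change was 0.21 in model against control, -0.02 in DSS against model and 0.20 in DSS against control, with 7, 3 and 6 of the 8 above 0. At an unadjusted p under 0.05, 2, 0 and 3 were higher (13.2%, 8.02% and 24.3% of all genes). Asgr1, the asialoglycoprotein receptor subunit that clears desialylated plasma proteins, had log2 fold changes of 0.65 (edgeR FDR = 0.181), -0.16 (FDR = 0.876) and 0.47 (FDR = 0.0593) in the 3 comparisons. Cst3, cystatin C, had 0.42 (FDR = 0.314) and -0.29 (FDR = 0.795) in the first 2, and Asgr2, the other subunit of the receptor, had 0.41 (FDR = 0.0716) in the third.

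Rbp4 (ENSRNOG00000015518) was measured at 3311, 3952 and 3809 CPM in the control rats, at 5077, 3401 and 3552 CPM in the model rats and at 4123, 3330 and 3841 CPM in the DSS rats. Model 1 alone stood above the range of the other 8 rats. The log2 fold change was 0.12 in model against control (-0.34 to 0.59, edgeR FDR = 0.838), -0.09 in DSS against model (-0.55 to 0.38, FDR = 0.947) and 0.03 in DSS against control (-0.29 to 0.34, FDR = 0.938). Without model 1 the first was -0.10 and the second 0.12. The genes most like Rbp4 were Aspdh (r = 0.948, and 0.906 without model 1), Palmd (r = 0.946) and Atp5mf, a subunit of ATP synthase (r = 0.944).

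Of 20 other genes of retinol transport and retinoid handling, 17 were tested, and edgeR called 0 in each comparison. For model against control 11 were above 0, with a median of 0.21, 2 genes in each direction at an unadjusted p under 0.05 (13.2% of all genes) and 0 by DESeq2. The retinoic acid receptor Rara (log2 fold change 0.47, edgeR FDR = 0.199) and the retinol and alcohol dehydrogenase Adh1 (-0.60, FDR = 0.291) led. For DSS against model 8 were above 0, with a median of -0.07, 2 lower at an unadjusted p under 0.05 (8.02% of all genes) and 0 by DESeq2. Adh1 (-0.42, FDR = 0.609) and Rarb (-0.68, FDR = 0.619) led. For DSS against control 10 were above 0, with a median of 0.03, 3 higher and 1 lower at an unadjusted p under 0.05 (24.3% of all genes). Adh1 was measured at 1790 ± 415 CPM in the control rats and 874 ± 105 CPM in the DSS rats (SD, n = 3), a log2 fold change of -1.04 (edgeR FDR = 0.0132), and it was the 1 gene that DESeq2 called. Dhrs4, a retinol-active reductase, came next (0.41, edgeR FDR = 0.0874).

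Among the hepatokine genes themselves, the highest correlations of log2(CPM + 1) over the 9 libraries were those of Fetub with Rbp4 (r = 0.818), Lect2 with Rbp4 (0.773) and Inhbe with Lect2 (0.768). Over 8 libraries without model 1 they were 0.615, 0.338 and 0.432. The pair of activin subunits, Inhbe and Inhba, had r = 0.543, and 0.517 without model 1.

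**Figure D3:**
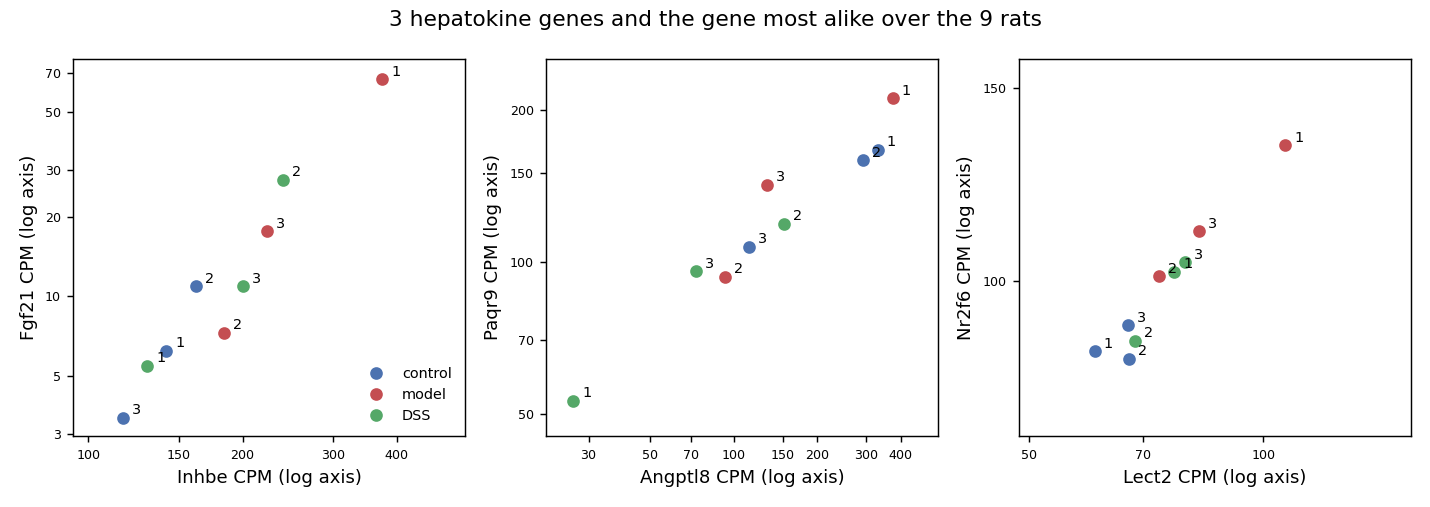
Level of Inhbe, Angptl8 and Lect2 (horizontal axes, CPM, log scale) against the gene most like each, Fgf21, Paqr9 and Nr2f6 (vertical axes, CPM, log scale), with 1 point per rat, coloured by group and numbered by rat. The points rise along a line in each panel (r = 0.967, 0.973 and 0.971), and model 1 is the highest point in each.

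Other secreted liver factors and the regulators of feeding and lipogenesis were set beside the hepatokine genes. Of 20 other secreted factors, 19 were tested, and edgeR called 0 in each comparison. For model against control 11 were above 0 and the median log2 fold change was 0.03, with 4 higher and 2 lower at an unadjusted p under 0.05 (13.2% of all genes). The smallest FDRs were those of the growth factor binding protein Igfbp2 (-3.19, edgeR FDR = 0.165), which was the 1 gene that DESeq2 called (2.05% of all genes), and of the hepatokine tsukushi, Tsku (-1.94, FDR = 0.221). Igfbp2 was low and widely spread, at 1.56 to 12.5 CPM in the control rats and 0.214 to 1.48 CPM in the model rats. Without model 1 its value was -2.69 (FDR = 0.32). For DSS against model 8 were above 0 and the median was -0.09, with 1 in each direction at an unadjusted p under 0.05 (8.02% of all genes) and 0 by DESeq2. The selenium carrier Selenop (0.52, edgeR FDR = 0.383) and chemerin, Rarres2 (-0.46, FDR = 0.606), led. For DSS against control 8 were above 0 and the median was -0.05, with 3 in each direction at an unadjusted p under 0.05 (24.3% of all genes). DESeq2 called 1 in each direction (6.09%). These were Selenop (0.56, edgeR FDR = 0.0312) and Tsku (-2.14, FDR = 0.0367), at 418 ± 40.5 CPM in the control rats and 94.9 ± 51.2 CPM in the DSS rats (SD, n = 3).

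All 11 genes of the insulin, lipogenic and fasting regulators were tested. For model against control 5 were above 0 with a median of -0.06, 0 were called by edgeR or DESeq2 and 1 was lower at an unadjusted p under 0.05 (13.2% of all genes). Pck1, the fasting-induced enzyme of gluconeogenesis, had a log2 fold change of 0.89 (edgeR FDR = 0.419). In DSS against model 6 were above 0 with a median of 0.02 and 0 were called by edgeR. At an unadjusted p under 0.05, 2 were lower (8.02% of all genes), and 1 was called lower by DESeq2 (1.18%). Thrsp, a lipogenic protein, had a log2 fold change of -2.33 (edgeR FDR = 0.0984, called by DESeq2), and Srebf1, the transcription factor through which insulin drives lipogenesis, one of -1.01 (FDR = 0.489).

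Of these 11 genes, edgeR called 1 in DSS against control. Srebf1 was lower, at 568 to 860 CPM in the control rats and 170 to 242 CPM in the DSS rats (log2 fold change -1.69, SE 0.198, FDR = 0.00244). The call was lost without DSS 2 (FDR = 0.0106). Of the 11 genes, 5 were above 0 with a median of -0.05, and 2 in each direction had an unadjusted p under 0.05 (24.3% of all genes). DESeq2 called 1 higher and 2 lower (6.09%).

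Without model 1, edgeR called 0 genes of these 8 lists in model against control and 0 in DSS against model. In model against control the median of the ATF4 list was then 0.50, with 10 of 13 above 0, that of the lipase axis 0.27, with 9 of 10 above 0, and that of the activin list 0.21. The cystatin list had 0.18, the Lect2 list -0.04, the retinoid list 0.11 and the other secreted factors 0.06, while the median of the insulin, lipogenic and fasting regulators went from -0.06 to 0.25. In DSS against model the medians without model 1 were -0.04 for the ATF4 list, -0.05 for the lipase axis, 0.02 for the activin list, -0.07 for the Lect2 list and -0.04 for the retinoid list. Those of the cystatin list (0.04), the other secreted factors (0.02) and the regulators (-0.17) changed sign there.

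Among single list genes, the log2 fold change in model against control without model 1 was 3.29 for Asns (edgeR FDR = 0.0271), 3.10 for Psat1 (FDR = 0.0795), 1.60 for Lpl (FDR = 0.117), 0.84 for Bambi (FDR = 0.0924) and 0.80 for Smad7 (FDR = 0.0969). In DSS against model Angptl4 was at -1.77 (FDR = 0.141) and Apoa5 at 1.01 (FDR = 0.0879). Among the named genes, Pck1 went to 0.51 in model against control, and in DSS against model Asgr1 went to 0.02, Cst3 to -0.18, Adh1 to -0.27 and Rarres2 to -0.27.

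**Figure D4:**
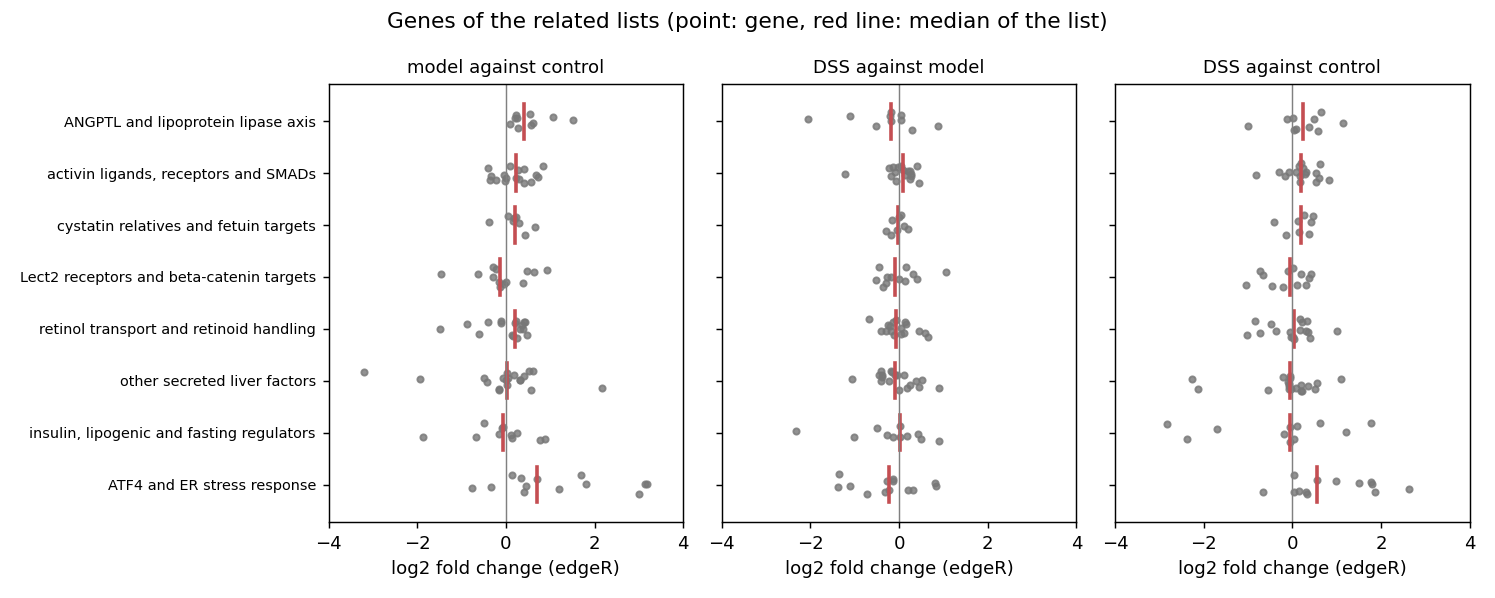
Log2 fold changes by edgeR (horizontal axis) of the tested genes on 8 lists related to the hepatokine genes (vertical axis) in the 3 comparisons, with 1 point per gene and a red line at the median of each list. The largest median is that of the ATF4 list in model against control (0.70), and all 10 genes of the lipase axis lie above 0 there.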

How the data were processed

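The authors enriched poly(A) RNA, aligned the reads with HISAT2 to Rnor_6.0, counted them per gene, ignoring strand, with HTSeq 0.6.1, and deposited raw counts. Reads from overlapping genes on opposite strands could therefore not be told apart by strand. A second deposited table of assembled transcripts, whose values have no stated unit, was not used. Each comparison was fitted here on the 6 libraries of its groups with edgeR 4.0.16 (R 4.3.3), using filterByExpr, TMM, robust glmQLFit and the two-sided glmQLFTest, with Benjamini-Hochberg adjustment over all genes tested. CPM are scaled to TMM-normalized library sizes over all 9 libraries (factors 0.871 to 1.14). Each edgeR SE was derived from the log2 fold change and the F statistic of its test, and intervals are approximate 95% intervals from that SE. DESeq2 1.42.0 was an alternative to the main test, beside other normalizations, filters, an FDR of 0.05, a replicate block, a joint fit of all libraries, and leaving out each rat. The self-test used simulated counts. No rat genome or annotation was used, so no rat positions are given and levels are not compared between genes.

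The hepatokine genes and the lists were chosen with earlier results of these data known. The genes named are the hepatokine genes, list genes called in a comparison or otherwise the 2 with the smallest FDR, and the 3 genes most correlated with each hepatokine gene. Genes called by DESeq2 were named after their values were seen. Some genes that this rule names are not reported here. Of 127 list symbols 121 were in the table. Kng2, Mep1b, Znrf3, Stra6l, Adh4 and Mlxipl were not analysed here.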

Additional observations from a re-analysis of the deposited data

How the results depend on the processing

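For the 6 tested hepatokine genes, 252 log2 fold changes were recomputed over 18 gene and comparison pairs, and 231 kept their direction and their side of the threshold. DESeq2 moved the number of hepatokine genes called from 0 to 1 in model against control and to 1 in DSS against model. Both were Inhba (1.0 and -1.05), and the cause was not tested. The other 19 turned in sign, from main values between -0.29 (Angptl8) and 0.13 (Fetub), both in model against control. With library size alone, which moved the median of all genes to -0.145 and -0.144 in the comparisons with the control group, Fetub and Rbp4 were each at -0.039 in model against control and at -0.022 and -0.107 in DSS against control. Fetub in DSS against model was at -0.00023 with at least 10 counts in every library and at -0.0020 with all 9 libraries in one fit. Leaving out 1 rat at a time gave, in model against control, -1.14 to 0.043 for Angptl8, -0.056 to 0.25 for Fetub and -0.10 to 0.23 for Rbp4. It gave -0.13 to 0.17 for Fetub and -0.20 to 0.12 for Rbp4 in DSS against model, and -0.19 to 0.05 for Inhba and -0.046 to 0.11 for Rbp4 in DSS against control. For Inhba it gave 0.81 to 1.11 (edgeR FDR 0.0525 to 0.288) and -1.17 to -0.85 (0.066 to 0.341) in the comparisons with the model group, and 0 hepatokine genes were called in any of these fits. For Inhbe it gave 0.52 to 1.09, -0.65 to -0.09 and 0.24 to 0.65 in the 3 comparisons.

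The same replicate numbers stand in each group, but same-numbered rats did not deviate together (correlations of -0.259 to -0.012), so the numbers were not read as pairs. With the replicate block 0 hepatokine genes were called in each comparison, Inhba was at 0.995 (edgeR FDR = 0.131) and -1.03 (FDR = 0.166), and 0, 7 and 104 of all genes were called, against 10, 17 and 187 without it. DESeq2 called 256, 147 and 769 of all genes, edgeR without a filter 71, 38 and 489, and all 9 libraries in one fit 25, 20 and 113. An FDR of 0.05 gave 75, 57 and 804. The call of Apoa5 was lost with the block (FDR = 0.0116) and that of Srebf1 with all 9 libraries in one fit (FDR = 0.0267), in alternatives added after seeing the data. Of 36 group means of CPM recomputed with other normalizations, 34 moved by less than 1 SD. Among the hepatokine genes, Fst alone had too few counts to be tested.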
